A study of Mus musculus with 15 samples.

Results

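Netrin 1 (Ntn1) and 5 of its classical receptors, neogenin (Neo1), Dcc, Unc5a, Unc5b and Unc5c, were followed by RNA sequencing through 15 libraries of mouse E14 embryonic stem (ES) cells. The genes were taken by symbol from a table of 49585 genes. All 6 were in that table, and 4 of them (Ntn1, Neo1, Unc5a and Unc5b) had enough counts to be among the 15223 genes tested. Ntn1 had been seen in earlier results of these data to be among the genes most reduced in FGF2/Activin, so this gene was chosen by its fold change between these media, and the receptors for their known role. The values of all 6 genes in 2iLif and FGF2/Activin are therefore a description with no test.

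The cells of all groups had been maintained with 0.4 µM PD0325901 (a MEK inhibitor), 3 µM CHIR99021 (a GSK3 inhibitor) and 4 ng/ml Lif, and were then put at 2000 cells per µl into growth factor reduced Matrigel under N2B27. The 5 groups, with 3 libraries each, differed in what this medium carried. One group received 2iLif, the label for a pair of kinase inhibitors with the cytokine Lif, which holds ES cells in the naive state. Another received FGF2/Activin, also written FAK in the labels. The inhibitor groups received PD032, an Aurora kinase A inhibitor written Aurka inh, or both together (PD032+ Aurka inh), which is called the combination. The labels do not say what PD032 or FAK stands for, name no Aurora compound, and give neither an inhibitor dose nor a time in the gel. There was no group in N2B27 alone, so the effect of adding a single inhibitor to that medium could not be measured. The libraries of 2iLif and FGF2/Activin carry file names of a different style from those of the inhibitor groups. A difference between these 2 sets cannot be told apart from a possible batch, and levels are set side by side across them without a test.

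Netrin 1 is a secreted protein related to laminin, best known for steering growing axons. DCC and neogenin are transmembrane receptors that transmit attraction, and the UNC5 receptors transmit repulsion or switch the response of DCC. DCC, neogenin and the UNC5 proteins are also known as dependence receptors, since without ligand they can be cut by caspases and promote cell death, and netrin binding blocks this. In ES cells, netrin 1 is known to act through neogenin and UNC5B.

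Total counts per library ran from 15199507 to 24202544. Levels are given as CPM, the count of a gene divided by its library's TMM-scaled total and multiplied by 1000000. All 6 genes of a list of general ES cell markers were above 1 CPM in every group, and their summed level lay between 2060 and 2500 CPM. The 8 naive markers together were highest in 2iLif, at 3960 to 3990 CPM, and reached 1790 to 1880 CPM in the combination, 604 to 694 CPM in PD032, 490 to 811 CPM in Aurka inh and 139 to 158 CPM in FGF2/Activin. The 6 formative markers together were highest in FGF2/Activin, at 4740 to 4770 CPM, followed by PD032 at 2260 to 2540 CPM, Aurka inh at 1920 to 2280 CPM, the combination at 908 to 1090 CPM and 2iLif at 284 to 293 CPM. The labels do not say whether replicates were separate cultures, so the tests rest on the spread between libraries of a group, which may be technical. In the main fit the 5 groups shared a common estimate of this spread for each gene. The biological coefficient of variation was 4.52% in 2iLif and 1.77% in FGF2/Activin, against 8.9% to 11.1% in the inhibitor groups. Tests among the inhibitor groups thus also drew on the narrower spread of 2iLif and FGF2/Activin, which can make their p-values too small. Replicate pairs of FGF2/Activin had a chi-square per degree of freedom of 1.24 to 1.57, close to counting error alone. If these replicates are technical, p-values of FGF2/Activin against 2iLif can be too small as well.

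Ntn1 (ENSMUSG00000020902) lies on the minus strand of chromosome 11 at 68209364 to 68400823 in mm10. It spanned the widest range of the 4 genes tested. In 2iLif the libraries read 418, 422 and 423 CPM (421 ± 2.55, SD, n = 3). In FGF2/Activin they read 1.77, 1.53 and 1.28 CPM (1.53 ± 0.246, SD, n = 3), from 20 to 27 counts per library. Ntn1 was thus abundant in every 2iLif library and below 2 CPM in every FGF2/Activin library, with a 276-fold difference between the means (log2 fold change -8.10, SE 0.129).

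The inhibitor groups fell on both sides of this gap. With PD032 alone, Ntn1 read 4.39, 4.13 and 4.46 CPM (4.33 ± 0.171, SD, n = 3). With Aurka inh alone it read 223, 250 and 187 CPM (220 ± 31.8, SD, n = 3), and in the combination 318, 301 and 290 CPM (303 ± 14.3, SD, n = 3). The order of levels was 2iLif, the combination, Aurka inh, PD032 and FGF2/Activin, and no library of one group reached into the next. In bulk RNA, fewer cells that express the gene and less RNA per cell cannot be told apart.

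**Figure D1:**
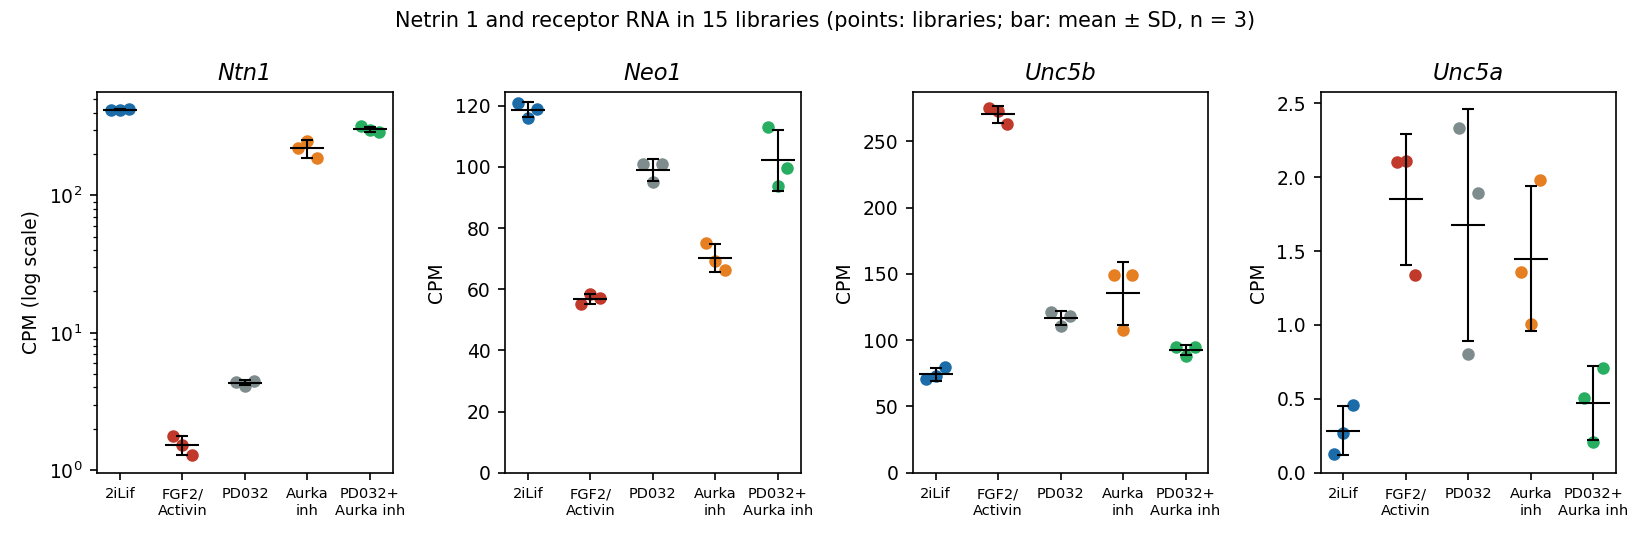
CPM of Ntn1 (log axis), Neo1, Unc5b and Unc5a (axes from 0) in the 5 groups, with a point for each library and bars for the mean and SD of 3 libraries. Ntn1 stands at 187 to 423 CPM in 2iLif, Aurka inh and the combination and at 1.28 to 4.46 CPM in FGF2/Activin and PD032, while Unc5b is highest and Neo1 lowest in FGF2/Activin.

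Neo1 (ENSMUSG00000032340) lies on the minus strand of chromosome 9 at 58874687 to 59036441, and Unc5b (ENSMUSG00000020099) on the minus strand of chromosome 10 at 60762593 to 60831581. Among the receptors followed here, these are the ones with appreciable RNA in these cells. Their promoter windows, 250 bases before to 50 after the RefSeq start site (build GRCm38.p6), are shown because both genes moved, in opposite directions, across the same media. Neo1 is from chr9:59036392-59036691 and Unc5b from chr10:60831532-60831831, both written 5′ to 3′ along the gene (minus strand), with capitals marking the letters GGGCGG on either strand, the GC box bound by factors of the Sp family.

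Neo1: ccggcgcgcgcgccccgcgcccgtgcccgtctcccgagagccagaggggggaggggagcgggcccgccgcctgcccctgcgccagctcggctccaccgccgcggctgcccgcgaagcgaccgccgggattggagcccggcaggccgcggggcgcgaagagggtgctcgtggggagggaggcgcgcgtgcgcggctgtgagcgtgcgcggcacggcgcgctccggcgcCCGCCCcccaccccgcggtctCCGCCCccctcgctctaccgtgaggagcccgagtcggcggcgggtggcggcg
Unc5b: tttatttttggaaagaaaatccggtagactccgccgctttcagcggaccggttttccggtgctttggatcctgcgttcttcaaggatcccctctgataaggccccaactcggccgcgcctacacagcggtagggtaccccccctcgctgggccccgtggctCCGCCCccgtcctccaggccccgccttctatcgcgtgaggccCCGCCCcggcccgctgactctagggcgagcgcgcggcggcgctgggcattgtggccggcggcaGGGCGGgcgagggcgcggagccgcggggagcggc

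RefSeq windows were at hand for 4 of the 6 genes, Neo1, Unc5a, Unc5b and Unc5c. The Neo1 window had a GC content of 82.7% and 54 CpG dinucleotides, and the Unc5b window 69.7% and 36, where the median of 32851 promoter windows was 52.7% and 7. The GC box was found 2 times in the Neo1 window, beginning 23 and 2 bases before the start site, and 3 times in the Unc5b window, with none overlapping. It occurs in 35.7% of all windows of this length, which were not matched to these genes by GC content. The Unc5a window (chr13:54949161-54949460, plus strand) held it 5 times, with 1 overlapping pair, and the Unc5c window (chr3:141465314-141465613, plus strand) did not hold it. The TCF and LEF core CTTTGA, found in 16% of all windows, was in none of the 4, and the ETS core GGAAGT, found in 23.8%, was only in that of Unc5c. The GC box was searched after the other letters had given no match in Neo1, Unc5a and Unc5b, on both strands as for the others. These matches describe letters, and binding was not measured.

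Neo1 had a narrower range than Ntn1 or Unc5b. It read 121, 116 and 119 CPM in 2iLif (118 ± 2.49, SD, n = 3) and 55.2, 58.5 and 57.1 CPM in FGF2/Activin (56.9 ± 1.61, SD, n = 3), a 2.08-fold difference (log2 fold change -1.06, SE 0.0675) with no overlap of libraries. With PD032 it read 101, 94.9 and 101 CPM (98.9 ± 3.5, SD, n = 3). Aurka inh libraries read 75.2, 69.2 and 66.4 CPM (70.3 ± 4.47, SD, n = 3), and those of the combination 113, 93.7 and 99.7 CPM (102 ± 10, SD, n = 3). Levels fell in the order 2iLif, the combination, PD032, Aurka inh and FGF2/Activin. Only the combination and PD032 overlapped among these neighbours.

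Unc5b ran the other way. Its libraries read 70.4, 72.8 and 79.9 CPM in 2iLif (74.4 ± 4.95, SD, n = 3) and 275, 273 and 263 CPM in FGF2/Activin (270 ± 6.35, SD, n = 3), which was 3.64-fold more (log2 fold change 1.86, SE 0.0965). PD032 libraries read 121, 111 and 118 CPM (117 ± 5.28, SD, n = 3). Aurka inh gave 149, 108 and 149 CPM (135 ± 23.7, SD, n = 3), where replicate 2 stood below all 3 PD032 libraries and the other 2 above them. The combination gave 95, 87.8 and 94.8 CPM (92.5 ± 4.06, SD, n = 3). The order was FGF2/Activin, Aurka inh, PD032, the combination and 2iLif, and only Aurka inh and PD032 overlapped among neighbours.

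Unc5a (ENSMUSG00000025876, chromosome 13, 54949411 to 55006018, plus strand) was scarce, with 325 counts in all 15 libraries and never more than 2.33 CPM. The 2iLif libraries read 0.13, 0.271 and 0.456 CPM, and those of FGF2/Activin 2.1, 2.11 and 1.34 CPM, a 6.47-fold difference of means (log2 fold change 2.66, SE 0.534) that rests on 13 and 86 counts. PD032 libraries read 2.33, 0.805 and 1.89 CPM, Aurka inh libraries 1.36, 1.01 and 1.98 CPM, and those of the combination 0.506, 0.209 and 0.708 CPM. In each inhibitor group replicate 2 was the lowest. Among neighbours in the order FGF2/Activin, PD032, Aurka inh, the combination and 2iLif, only Aurka inh and the combination did not overlap. Exons of Unc5a share 34 bases with those of Hk3 on the opposite strand. Hk3 itself had 0 to 15 counts per library, and the strand setting of the counting is not given in the sources used here.

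The other classical receptors were at the limit of detection. Dcc (ENSMUSG00000060534, chromosome 18, 71253634 to 72351069, minus strand), the founding receptor of axon attraction, had 1 count in all, in replicate 1 of the combination. A limit of 3 counts over a group's 3 libraries allowed up to 0.0641 CPM in 2iLif, 0.0644 CPM in FGF2/Activin, 0.0482 CPM in PD032 and 0.053 CPM in Aurka inh, and covers counting error only. Unc5c (ENSMUSG00000059921, chromosome 3, 141465216 to 141834924, plus strand) had 7 counts spread over 6 libraries and at most 2 in any of them. Unc5d, which belongs to the UNC5 family and was placed in a list of co-receptors, had 39 counts in 11 libraries. Neither Dcc nor Unc5c could be compared between media at this depth.

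To compare genes with each other, CPM was divided by the kilobases covered by a gene's exons. On this scale Ntn1 stood at 67.1 CPM per kb in 2iLif, above Neo1 at 13.6 and Unc5b at 11.9 CPM per kb. In FGF2/Activin the order was Unc5b at 43.2, Neo1 at 6.53, Unc5a at 0.443 and Ntn1 at 0.243 CPM per kb. The group mean of Unc5a was at most 0.443 CPM per kb. The RNA of the ligand was thus the most abundant of the set in one medium and lower than that of 3 receptors in the other.

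Summed over Neo1, Dcc and the 4 Unc5 genes, receptor RNA was 25.6 ± 0.853 CPM per kb in 2iLif and 50.2 ± 1.06 in FGF2/Activin (SD, n = 3 each). With PD032 the sum was 30.4 ± 1.43, with Aurka inh 30.1 ± 4.01 and with the combination 26.6 ± 1.72 CPM per kb (SD, n = 3 each). Neo1 made up 53.2% ± 1.83 of this sum in 2iLif and 13.0% ± 0.483 in FGF2/Activin (SD, n = 3 each). Unc5b made up 46.5% ± 1.68 and 86.1% ± 0.402 of it (SD, n = 3 each). The RNA in this sum was therefore split almost evenly between Neo1 and Unc5b in 2iLif and was mostly Unc5b in FGF2/Activin. Mcam, also described as a netrin receptor, was left out of the sum. Its group means ran from 33.8 CPM in FGF2/Activin to 104 CPM in PD032. Among the inhibitor groups the Neo1 share was 44.0% ± 1.71 in the combination, 37.3% ± 0.521 in PD032 and 27.1% ± 3.71 in Aurka inh (SD, n = 3 each), with no overlap of libraries.

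The ratio of Ntn1 RNA to this receptor sum, both per kb and without Mcam, was 2.63 ± 0.0764 in 2iLif and 0.00483 ± 0.000695 in FGF2/Activin (SD, n = 3 each). It was 1.82 ± 0.103 in the combination and 0.0227 ± 0.00046 in PD032 (SD, n = 3 each). In Aurka inh it ranged from 0.933 to 1.56, on both sides of 1. Ntn1 RNA exceeded the sum over these receptors in every library of 2iLif and the combination, and was below it in every library of PD032 and FGF2/Activin. RNA levels say nothing of the amount of protein or of ligand bound.

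**Figure D2:**
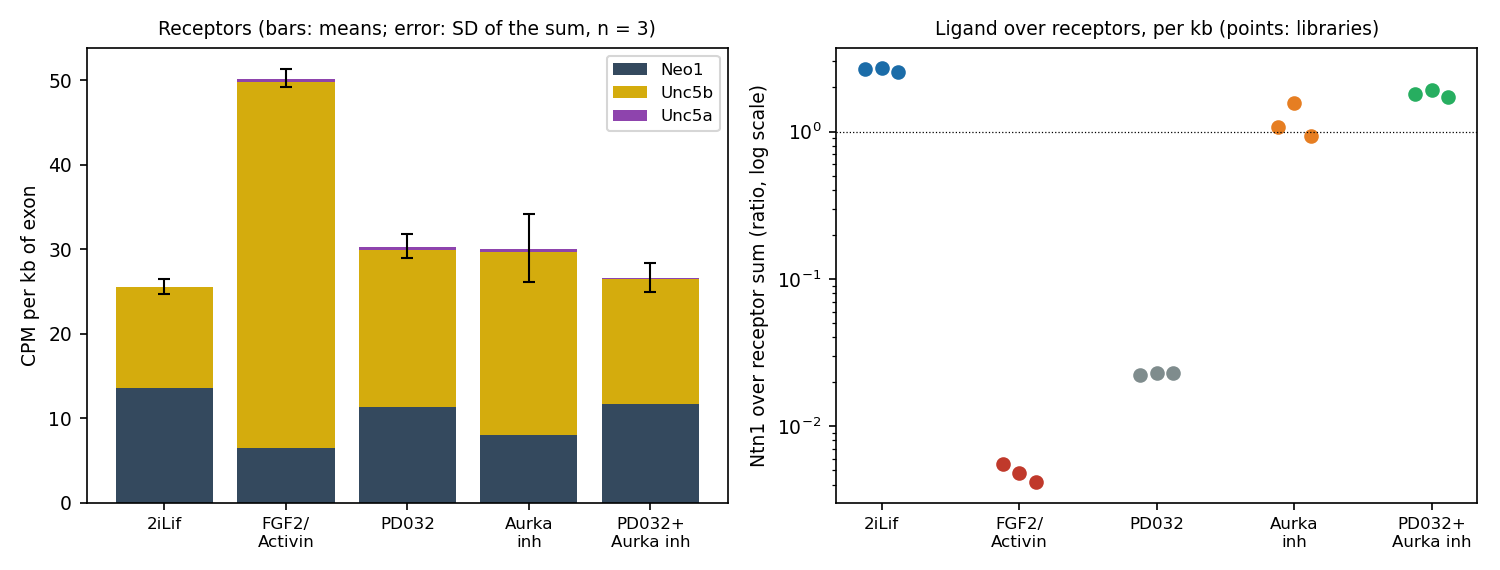
Left, mean CPM per kb of exon of Neo1, Unc5b and Unc5a stacked by group, with the SD of the summed receptors over 3 libraries. Right, the ratio of Ntn1 to the receptor sum in each library on a log axis, dotted at 1. The bar is tallest in FGF2/Activin, at 50.2 CPM per kb, where the ratio is lowest, at 0.00416 to 0.00554.

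Of the 3 comparisons tested, the combination against PD032 had the largest change of the ligand. Ntn1 rose 70-fold from PD032 to the combination (log2 fold change 6.12, SE 0.108, 95% interval 5.90 to 6.35, adjusted p = 1.8e-15 with edgeR's quasi-likelihood test and Benjamini-Hochberg adjustment over all genes). All 3 libraries of the combination were above all 3 of PD032. Unc5b fell, to 0.793 of its PD032 mean (log2 fold change -0.33, SE 0.0934, 95% interval -0.53 to -0.14, adjusted p = 0.0084), and its libraries did not overlap. Unc5a fell as well, on 110 and 32 counts (log2 fold change -1.78, SE 0.429, 95% interval -2.69 to -0.87, adjusted p = 0.0030). Neo1 did not pass the test, with overlapping libraries, a log2 fold change of 0.05 (SE 0.0647) and a 95% interval from -0.09 to 0.19 (adjusted p = 0.58). Of all genes tested, 43.7% passed in this comparison, 20% higher and 23.8% lower, so that 3 of 4 passing is to be read against a wide background.

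From Aurka inh to the combination Ntn1 rose 1.38-fold (log2 fold change 0.46, SE 0.0767, 95% interval 0.30 to 0.62, adjusted p = 0.00021). The lowest library of the combination, at 290 CPM, was above the highest of Aurka inh, at 250 CPM. Neo1 rose 1.45-fold (log2 fold change 0.54, SE 0.0657, adjusted p = 1.1e-05). Unc5b fell, with a log2 fold change of -0.55 (SE 0.0934, adjusted p = 0.00025). Both genes had groups that did not overlap. Unc5a fell by 1.57 on the log2 scale (SE 0.445, adjusted p = 0.012), a call that was lost without replicate 3 of Aurka inh, where the log2 fold change was -1.29 and the adjusted p 0.071. In this comparison 34.9% of all genes passed, 18.6% higher and 16.3% lower.

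The single inhibitors were also compared with each other. Ntn1 was 50.9-fold higher with Aurka inh than with PD032 (log2 fold change 5.66, SE 0.107, adjusted p = 2.9e-15), with 45.5% of all genes passing, 19.7% higher and 25.8% lower. Neo1 was lower with Aurka inh (log2 fold change -0.49, SE 0.0658, adjusted p = 1.6e-05), and all 3 of its libraries were below those of PD032. Unc5b, at a log2 fold change of 0.22 (SE 0.0928, 95% interval 0.02 to 0.41), did not pass (adjusted p = 0.068). It passed with replicate number as a block (adjusted p = 0.0028), and without replicate 2 of Aurka inh, when the log2 fold change was 0.35 (adjusted p = 0.00014). Over the settings tried for Unc5b the adjusted p ran from 0.00014 to 0.27. For Unc5a the log2 fold change was -0.22 (SE 0.364) with a 95% interval from -0.99 to 0.56 (adjusted p = 0.66). The 3 comparisons share libraries in pairs and are not independent of each other. The summed naive and formative markers given above also differed between these groups, and their part in the values of these genes was not tested.

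**Figure D3:**
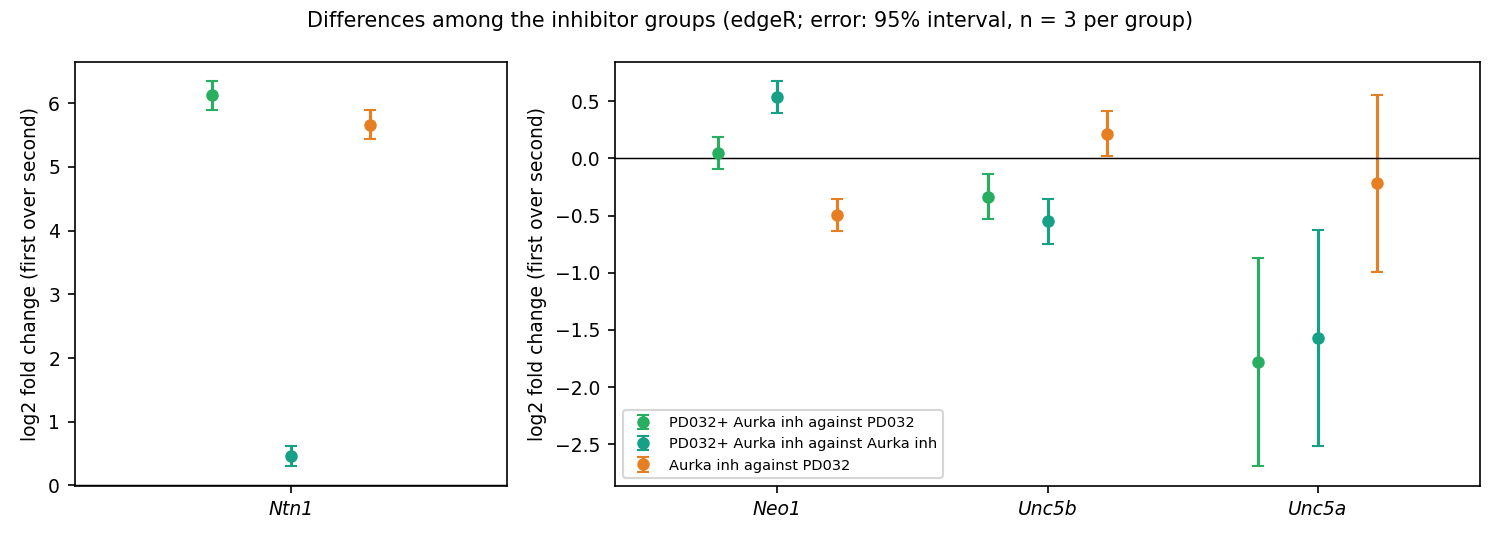
Log2 fold changes with 95% intervals from edgeR for Ntn1 (left) and for Neo1, Unc5b and Unc5a (right) in the 3 comparisons of inhibitor groups, each with 3 libraries per group. Ntn1 lies at 6.12 and 5.66 where PD032 alone is the reference and at 0.46 where Aurka inh is, and the intervals of the receptors that cross 0 are those of Neo1 in the combination against PD032 and Unc5a in Aurka inh against PD032.

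Further genes of the pathway came from 5 lists holding 66 genes, of which 65 were in the table and 58 were tested. In FGF2/Activin against 2iLif, 29 of the 58 were higher, 21 lower and 8 did not pass, with 65.9% of all genes passing, 33.3% higher and 32.6% lower. From PD032 to the combination 11 rose, 25 fell and 22 did not pass, so that 62.1% passed against 43.7% of all genes. From Aurka inh to the combination 22 rose, 12 fell and 24 did not pass, which is 58.6% against 34.9% of all genes. With Aurka inh against PD032, 12 were higher, 28 lower and 18 did not pass, which is 69.0% against 45.5% of all genes. The counts of single lists below are to be read against the same shares of all genes. The listed genes were not matched to all genes by level, on which the power of the test depends. Some scarce genes, named below, had enough counts to be tested only through a single group. The median log2 fold changes of the lists together were 0.16, -0.12, 0.01 and -0.24 in these 4 comparisons, and those of all genes -0.01, 0.01, 0.01 and -0.02.

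Among 13 other ligands and secreted partners, 8 were tested. The secreted netrins Ntn4 and Ntn5 had 38 and 29 counts in all 15 libraries, and Ntn3 was not analysed here. In FGF2/Activin against 2iLif 4 ligands were higher and 3 lower. The 4 that were higher, Ntng2, Draxin, Hjv and Cbln4, had means of at most 3.97 CPM in FGF2/Activin. Hjv and Cbln4 had means of at most 0.347 and 0.241 CPM in the other groups. They had enough counts to be tested only through FGF2/Activin, so their direction was set in advance. Rgma, a repulsive guidance molecule that binds neogenin, fell from 12.7 ± 1.37 to 2.04 ± 0.522 CPM (adjusted p = 6.7e-09). Flrt3, a membrane protein that binds UNC5 receptors, fell from 12.9 ± 0.625 to 2.56 ± 0.39 CPM (adjusted p = 1.8e-09, SD, n = 3 each). Among the inhibitor groups these 2 genes moved apart. Rgma was highest in PD032, at 19.4 ± 3.78 CPM, and fell to 4.79 ± 0.611 CPM in the combination (log2 fold change -2.03, adjusted p = 4.7e-08). Flrt3 rose over the same comparison from 2.76 ± 0.58 to 6.98 ± 0.275 CPM (log2 fold change 1.32, adjusted p = 3.0e-06). Rgmb, a relative of Rgma, fell from 8.83 ± 0.492 to 5.81 ± 0.894 CPM (adjusted p = 0.0011). With these, 1 ligand rose and 4 fell from PD032 to the combination, 1 rose and 1 fell from Aurka inh, and 1 was higher and 5 lower with Aurka inh against PD032. The share of ligands that passed in these 3 comparisons was 62.5%, 25% and 75.0%, against 43.7%, 34.9% and 45.5% of all genes. With 8 genes tested, each gene moves such a share widely.

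Of 10 other receptors and co-receptors 8 were tested, and 4 of them were lower and 2 higher in FGF2/Activin than in 2iLif. Mcam, an adhesion molecule also described as a netrin receptor, went from 89.9 ± 3.56 to 33.8 ± 1.63 CPM (adjusted p = 4.2e-10). Robo1, the Slit receptor that can silence attraction by DCC, went from 81.2 ± 4.23 to 23.2 ± 2.29 CPM (adjusted p = 1.6e-11). The glypican Gpc4 fell from 65.8 ± 3.72 to 20.4 ± 0.79 CPM and the syndecan Sdc2 rose from 6.17 ± 0.253 to 15 ± 0.715 CPM (adjusted p = 2.9e-10 and 5.2e-08). From PD032 to the combination 1 rose and 6 fell, among them Mcam from 104 ± 5.47 to 65.9 ± 2.38 CPM (adjusted p = 5.5e-06) and Gpc3 from 37.9 ± 5.2 to 16.4 ± 1.72 CPM (adjusted p = 1.7e-07). From Aurka inh to the combination 4 rose and 1 fell. Mcam rose here from 37.3 ± 5.71 CPM (adjusted p = 1.5e-06), and Robo1 from 35.0 ± 3.26 to 54.7 ± 3.11 CPM (adjusted p = 1.2e-05). The fall was that of Sdc2 (log2 fold change -0.38, adjusted p = 0.015), which was lost without replicate 3 of Aurka inh (adjusted p = 0.081) and without replicate 3 of the combination (adjusted p = 0.088). None was higher and 6 were lower with Aurka inh against PD032. These counts include Dscam among the rises to the combination, and Robo3 among the genes higher in PD032. Dscam had enough counts to be tested only through the combination, at 0.736 CPM, and Robo3 only through PD032, at 1.3 CPM. Their directions in these comparisons were thus set in advance. In these 3 comparisons 87.5%, 62.5% and 75.0% of the receptors passed, against 43.7%, 34.9% and 45.5% of all genes.

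The cytoplasmic partners of DCC and neogenin link these receptors to kinases and the actin skeleton. Of 27 listed 26 were tested, with 13 higher, 10 lower and 3 not passing in FGF2/Activin against 2iLif. Trio, an exchange factor that activates Rac1 below DCC, went from 14.4 ± 1.6 to 188 ± 4.79 CPM (adjusted p = 9.6e-10). Yes1, a kinase of the Src family, went from 213 ± 15.6 to 27.1 ± 1.29 CPM (adjusted p = 7.2e-14), and Ablim1, an actin-binding LIM protein, from 59.5 ± 2.14 to 4.42 ± 0.376 CPM (adjusted p = 2.6e-11). Trim67, a ubiquitin ligase that binds DCC, had 298 counts in FGF2/Activin and 0 in 2iLif, which made it at least 99.7-fold higher when the limit of 3 counts is set over the whole group. Its means elsewhere were at most 0.164 CPM, so it had enough counts to be tested only through FGF2/Activin.

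Trio and Yes1 differed among the inhibitor groups too. Trio fell from 103 ± 20.7 CPM in PD032 to 11.3 ± 2.75 CPM in the combination (log2 fold change -3.19, adjusted p = 2.0e-08), and from 51.4 ± 18.2 CPM in Aurka inh (log2 fold change -2.19, adjusted p = 3.1e-06). Yes1 rose from 38.3 ± 1.79 to 90.5 ± 4.31 CPM between PD032 and the combination (adjusted p = 4.3e-09). Bcar1, a docking protein of focal adhesions, fell from 132 ± 7.3 to 44.2 ± 0.967 CPM in the same comparison (adjusted p = 1.7e-11). There 7 of the 26 rose, 8 fell and 11 did not pass. From Aurka inh to the combination 13 rose, 5 fell and 8 did not pass, with Elmo1, a partner of Dock1 in Rac activation, going from 51.8 ± 6.13 to 27.9 ± 8.2 CPM (adjusted p = 0.0013). With Aurka inh against PD032 the counts were 7 higher, 8 lower and 11 not passing. The kinase Pak1 was higher there, at 97.7 ± 7.08 against 45.7 ± 5.0 CPM (adjusted p = 1.0e-08). The shares that passed were 57.7%, 69.2% and 57.7%, against 43.7%, 34.9% and 45.5% of all genes.

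All 12 listed partners of UNC5 receptors and of the death arm were tested. In FGF2/Activin against 2iLif, where Unc5b was higher, 7 were higher, 3 lower and 2 did not pass. Dapk1, the kinase that carries the death signal of UNC5B, went from 38.5 ± 1.89 to 156 ± 5.09 CPM (log2 fold change 2.01, adjusted p = 3.1e-11). The initiator caspase Casp9 went from 47.7 ± 1.31 to 32.8 ± 2.63 CPM (adjusted p = 2.1e-05). Ppp2r1b, the phosphatase subunit through which UNC5B activates DAPK1, went from 100 ± 2.32 to 162 ± 6.22 CPM (adjusted p = 3.8e-08).

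Among the inhibitor groups, the combination had the lowest Dapk1, at 67.3 ± 5.75 CPM against 126 ± 10.9 CPM in PD032 (log2 fold change -0.91, adjusted p = 8.4e-07) and 107 ± 15.6 CPM in Aurka inh (log2 fold change -0.67, adjusted p = 3.9e-05). Cip2a, an inhibitor of the phosphatase, rose from 127 ± 2.03 to 155 ± 3.76 CPM between PD032 and the combination (adjusted p = 9.5e-05). Of the 12, 2 rose and 4 fell from PD032 to the combination, and likewise 2 rose and 4 fell from Aurka inh to it. The rise of Casp9 in the latter (log2 fold change 0.27, adjusted p = 0.017) was lost without replicate 3 of Aurka inh (adjusted p = 0.10) and without replicate 1 of the combination (adjusted p = 0.099). With Aurka inh against PD032, 4 were higher and 5 lower. The shares that passed were 50%, 50% and 75.0%, beside 43.7%, 34.9% and 45.5% of all genes. RNA of these genes does not measure cell death, which the files do not report.

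The 4 integrins named as binding netrins, which also bind laminins, were all tested. Itga3 differed most, from 7.18 ± 0.235 CPM in 2iLif to 126 ± 3.42 CPM in FGF2/Activin (log2 fold change 4.13, adjusted p = 5.9e-13), where Itga6 and Itgb1 were higher as well and Itgb4 was lower, at 3.65 ± 0.3 against 12.7 ± 1.26 CPM (adjusted p = 2.0e-08). None rose and 3 fell from PD032 to the combination, with Itga3 at 11.1 ± 0.872 and 3.17 ± 0.72 CPM (adjusted p = 3.2e-07) and Itga6 at 285 ± 6.92 and 181 ± 6.16 CPM (adjusted p = 1.0e-07). All 4 were lower with Aurka inh than with PD032. From Aurka inh to the combination 2 rose, 1 fell and 1 did not pass, with Itga6 rising from 130 ± 11.1 CPM (adjusted p = 7.3e-06). Of these 4 integrins 75.0% passed from PD032 to the combination, against 43.7% of all genes. The share was 75.0% from Aurka inh to the combination, against 34.9%, and 100% with Aurka inh against PD032, against 45.5%.

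Genes whose pattern was most like that of Ntn1, Neo1 and Unc5b were found by Pearson's r of log2 CPM over the 15 libraries. They were sought among 8690 genes with a mean of at least 10 CPM, leaving out clone and predicted-gene names. The libraries share their group, so r mostly compares 5 group levels, and it is a description. For Ntn1 the leading genes were Ebp (r = 0.993), which acts in cholesterol synthesis, the threonine dehydrogenase Tdh (r = 0.990), the kinase Camkk2 (r = 0.987), the connexin Gjc1 (r = 0.987) and Kctd6 (r = 0.986). Tdh stood at 774 CPM in 2iLif, 685 in the combination, 579 in Aurka inh, 120 in PD032 and 47.4 in FGF2/Activin. None of the 5 had the width of Ntn1, as their lowest group mean stayed at 7.92 CPM or more.

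Axin2, Klf4, Fgf5 and Spry4, taken from a larger fixed set of genes for the state of the cells, were compared with Ntn1 as well. Axin2, a target of Wnt signalling, correlated with Ntn1 at r = 0.912, at rank 138. It stood at 124 ± 6.01 CPM in 2iLif, 97.2 ± 4.69 in Aurka inh, 80.1 ± 2.24 in the combination, 12.8 ± 1.34 in FGF2/Activin and 4.11 ± 0.626 in PD032 (SD, n = 3 each). Klf4, a factor of the naive state, had r = 0.787 and rank 717, and was at 15.7 CPM in Aurka inh and 14.3 CPM in PD032, groups in which Ntn1 was 220 and 4.33 CPM. Other naive markers differed between Aurka inh and PD032 in both directions, with Tbx3 at 24.8 and 5.64 CPM and Prdm14 at 1.89 and 6.67 CPM. Fgf5, a formative marker, ran opposite at r = -0.943, and Spry4, a target of ERK, showed almost no relation, at r = 0.079.

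For Neo1 the leading genes were Atp6v0a2 (r = 0.992), Pla2g15, Nemp1, Tmem41b and Agtrap (r = 0.982). Atp6v0a2, a subunit of the proton pump of vesicles, went from 53.3 CPM in 2iLif to 26.5 CPM in FGF2/Activin. For Unc5b they were Flywch1 (r = 0.994), Gatad1, Usp25, Ubqln1 and Naf1 (r = 0.982), with Flywch1 at 30.9 CPM in 2iLif and 73.2 CPM in FGF2/Activin.

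**Figure D4:**
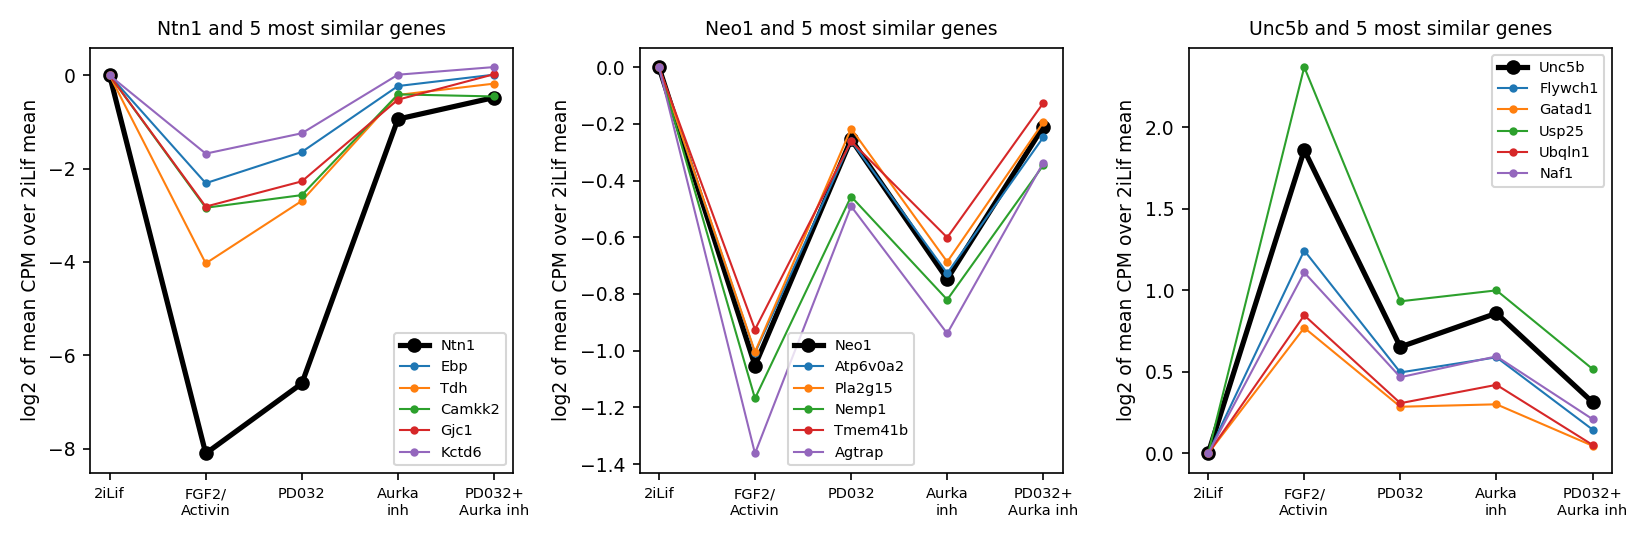
Group mean CPM relative to the 2iLif mean, on a log2 axis, for Ntn1, Neo1 and Unc5b (black) and the 5 genes most correlated with each over 15 libraries (colours). The groups have no order along the axis and lines only join the points of a gene. Ntn1 drops further in FGF2/Activin and PD032 than the genes that follow it, of which Tdh goes lowest, from 774 to 47.4 CPM.

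Netrin receptors are also genes of neurons, and the cells were checked for these. The 8 markers of neuroectoderm and neurons summed to 10.9 to 14.0 CPM in 2iLif, where Neurog2 and Dcx were among those at 0 counts, to 58 to 63.8 CPM in FGF2/Activin, 55 to 78.6 CPM in PD032, 32.8 to 58.1 CPM in Aurka inh and 21.5 to 32.1 CPM in the combination. The 8 primitive endoderm markers summed to at most 22.7 CPM, the 8 mesoderm markers to at most 22.6 CPM and the 7 fibroblast markers to at most 22.9 CPM in any library. The 6 trophoblast markers summed to 68.7 to 70.3 CPM in 2iLif and 40.5 to 60.4 CPM in the combination, and to at most 30.7 CPM in the other groups. Most of it came from Tfap2c in 2iLif and the combination, at 53.7 and 46.1 CPM, followed by Eomes at 13.1 and 5.89 CPM. Means of Cdx2, Elf5, Krt7 and Hand1 were at most 1.67 CPM in both. Of the neuroectoderm sum in FGF2/Activin, 46.3 CPM came from Nes and 9.49 CPM from Neurod1, against 7.31 and 2.36 CPM in 2iLif. Pax6 and Rbfox3 were higher there too, at 0.861 and 1.29 CPM against 0.31 and 0.241 CPM. Only Sox1 was lower, at 1.42 CPM against 2.38 CPM in 2iLif. In PD032, Nes was at 34.9 CPM, Neurod1 at 17.1 CPM and Pax6 at 11.5 CPM. Unc5b had means of 270 CPM in FGF2/Activin and 117 CPM in PD032, groups whose neuroectoderm sums overlapped and whose file names differ in style. The part of such cells in the levels of the receptors was not tested.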

How the data were processed

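Poly(A) RNA of 15 libraries was sequenced with a directional kit, per the labels' protocols. The authors deposited whole-number counts per gene, and a table of normalized values on the log2 scale that was used only as an alternative. Per the submitters' processing notes, STAR, DESeq2 and mm10 were used. For these tools no version, and for the counting no tool, annotation or strand setting, is given in the sources used here.

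Gene identifiers were matched to GENCODE M21 (49326 of 49585). Genes kept by filterByExpr (15223) were fitted in all 15 libraries with edgeR's quasi-likelihood test (edgeR 4.0.16, R 4.3.3), TMM scaling and a term per group. The threshold was 0.05 on p-values adjusted by Benjamini and Hochberg across the 15223 genes. Of the 6 genes, the 4 kept by the filter were tested, and results of these tests are given for the 3 comparisons of inhibitor groups only. Log2 CPM used a prior count of 2. Levels per kb used the union of GENCODE exons. The fit was tested on simulated data.

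The genes and lists were chosen with earlier results of these data known. From each pathway list, up to 4 genes that passed, with a mean of at least 5 CPM in the higher group, were named by the size of their fold change, except where a listed gene is not reported here, and 5 similar genes for each of Ntn1, Neo1 and Unc5b.

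Equal replicate numbers were checked by correlating deviations from group means across genes. Among the inhibitor groups r lay between 0.17 and 0.483 for every pair, with 8 of 9 libraries closest to their own number. These numbers were therefore used as pairs in an alternative fit with a replicate block. The main fit, which gave the tests in the results, had no such block and left the pairing out. Between FGF2/Activin and 2iLif r was -0.026 to 0.00713. The alternatives were other scalings, no filter, DESeq2 1.42.0, limma 3.58.1 on the deposited log2 values, fewer libraries, the replicate block, each replicate left out, and the longest transcript as gene length.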

Additional observations from a re-analysis of the deposited data

How the results depend on the processing

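Ntn1 kept its direction and its call in all 14 alternatives of each of the 3 inhibitor comparisons. Neo1 in the combination against PD032, which did not pass, reversed to -0.0198 without replicate 1 of the combination (range over left-out replicates -0.0198 to 0.11). Unc5a in Aurka inh against PD032, which did not pass, reversed to 0.081 without PD032 replicate 1 (range -0.52 to 0.081). Unc5a in the combination against Aurka inh did not pass without Aurka inh replicate 3, at -1.29 (range -1.98 to -1.25). Unc5b in Aurka inh against PD032 passed with DESeq2 size factors at 0.24 (adjusted p = 0.041), with DESeq2 at 0.24 (adjusted p = 0.038), with no filter at 0.21 (adjusted p = 0.010), with the replicate block at 0.22 (adjusted p = 0.0028), and without Aurka inh replicate 2 at 0.35 (range 0.14 to 0.35). The causes were not tested.

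The replicate block gave 8533 genes in the combination against PD032, 7181 against Aurka inh and 8648 in Aurka inh against PD032, where the same 9 libraries without it gave 5421, 4030 and 5719, and changed no other call of the 4 genes tested. In FGF2/Activin against 2iLif, whose numbers do not pair, it gave 10790. Fitting only the 2 groups compared, which leaves out the spread of the other groups, gave 3480 genes in place of 5311 in the combination against Aurka inh. In that comparison this edgeR fit gave the highest adjusted p of Ntn1, Neo1 and Unc5b, at 0.015, 0.0034 and 0.0089. With the longest transcript as length, the Neo1 share was 55.8% in 2iLif, 14.2% in FGF2/Activin, 39.8% in PD032 and 46.5% in the combination, the Unc5b share 44.0%, 84.9%, 59.0% and 53.0%, and the ratio of Ntn1 to receptors 2.49 in 2iLif and 0.0219 in PD032. The deposited log2 values put the difference of FGF2/Activin from 2iLif at -6.34 for Ntn1 and 0.74 for Unc5a, and the fall of Unc5a at -0.52 from PD032 and -0.47 from Aurka inh to the combination. Of 934 refits of the 68 named pathway results, 923 kept direction and call and 11 lost the call, all in the combination against Aurka inh, among them those of Sdc2, Casp9 and Itga3. Dcc and Unc5c were limited by depth.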

Other observations

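Ntng2 and Cbln4, whose levels were below the rule for naming, were picked after their values were seen and are described without a test. Both had a wide range, as did Hjv, at 0.858 ± 0.0887 CPM in FGF2/Activin and 0.0651 ± 0.0651 CPM in 2iLif. Ntng2 encodes netrin G2, a membrane-anchored netrin that does not use the classical receptors. It had 185 counts in FGF2/Activin and 3 in 2iLif, at 3.7 to 4.34 and 0 to 0.13 CPM. In PD032 it stood at 1.76 ± 0.067 CPM, in Aurka inh at 0.971 ± 0.252 CPM and in the combination at 0.286 ± 0.161 CPM (SD, n = 3 each). Cbln4, a secreted protein described as a ligand of DCC and neogenin, had 114 counts in FGF2/Activin, 2 in 2iLif and 0 in Aurka inh.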
